A study of Rattus norvegicus with 20 samples.

Results

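The proteasome subunits and proteasome activators were followed through cultures of heart cells from newborn rats that had been treated with histidine, with doxorubicin or with both. Members were taken by protein name, as the genes whose entry begins with Proteasome subunit, 26S proteasome or Proteasome activator, which gave 46 of the 15503 genes measured. Of these, 41 were the only locus of their protein name, or the longest of several: 7 alpha ring subunits, 7 standard beta subunits, 3 immune beta subunits, 6 ATPases and 14 non-ATPase subunits of the 19S particle, and 4 activator subunits. The other 5 were shorter further loci that carry the protein name of one of these. All 46 passed the filter on low counts. The 4 groups held 5 libraries each, all taken at 72 h: PBS alone, 100 nM histidine, 1 µM doxorubicin, or both compounds at those doses. Histidine is an amino acid; doxorubicin, an anthracycline used against tumours, damages DNA through topoisomerase II and is cardiotoxic. The labels name the cells only as neonatal rat cardiomyocytes and do not tell whether each library is a culture of its own. The p-values therefore describe the spread among these libraries, part or all of which may be technical.

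The proteasome is the protease that takes apart proteins marked with ubiquitin. Its 20S core is a stack of alpha and beta rings, and the peptide bonds are cut by the beta subunits encoded by Psmb5, Psmb6 and Psmb7. In leukocytes and in cells exposed to interferon these are replaced by Psmb8, Psmb9 and Psmb10, and the resulting immunoproteasome makes peptides for display on MHC class I. The 19S particle caps the core; its ATPases unfold the substrate and its non-ATPase subunits bind ubiquitin chains and remove them. The activators Psme1 and Psme2 form the interferon-inducible PA28 cap, Psme3 forms a nuclear cap, and Psme4 encodes PA200. Heart muscle depends on the system for turnover of contractile proteins.

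Total counts per library ran from 53246205 to 83624651. Doxorubicin replicate 4 stood apart from the other 19 libraries: its deposited FPKM values summed to 517265 against 373417 to 398545 in the others, and it held the highest of the 20 values for 37 of the 46 members. Calls and counts that change without it are therefore given both ways. All 12 cardiomyocyte markers were detected, but their summed FPKM of 497 to 600 with PBS was far below the 16435 to 17401 of 10 fibroblast markers, so fibroblast transcripts were abundant in these cultures. In the groups with doxorubicin the summed FPKM of the cardiomyocyte markers was 117 to 222, or 129 to 140 with histidine, and that of 10 macrophage and leukocyte markers was 64.7 to 88.4, or 59.6 to 69, against 786 to 852 with PBS and 786 to 989 with histidine alone. The fibroblast markers summed to 9543 to 15459 FPKM with doxorubicin and 13593 to 15950 with both, against 14111 to 16860 with histidine alone. Single fibroblast markers moved in both directions. Without doxorubicin replicate 4 the log2 fold change with doxorubicin was -0.70 ± 0.12 for Col1a1 and 0.68 ± 0.08 for Fn1. Of 7 smooth muscle and pericyte markers 6 fell with doxorubicin (7 without replicate 4) and 5 in the presence of histidine (6 with the spread estimated without replicate 4), and 7 endothelial markers summed to at most 10.2 FPKM in any library. Of the endothelial markers Tie1 and Pecam1 fell with doxorubicin (log2 fold changes -3.94 ± 0.57 and -2.01 ± 0.36), while Tek rose (0.86 ± 0.15). None of the markers of these cell types was at 0 in a whole group, and of 3 erythroid genes Hbb was at 0 in every PBS and histidine library. In such bulk samples fewer cells of a type and less RNA per cell cannot be told apart.

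Promoter sequences are shown for the members on which the results turn: the 3 immune subunits, both PA28 subunits, and, for contrast, a standard catalytic subunit, Psmb5, and a 19S ATPase, Psmc2. They are the 250 bases before the RefSeq start of the gene in build GRCr8, read 5′ to 3′ on the strand of the gene: Psmb8 at chr20:4657032-4657281, minus strand; Psmb9 at chr20:4668750-4668999, plus strand; Psmb10 at chr19:50743293-50743542, minus strand; Psme1 at chr15:33038721-33038970, plus strand; Psme2 at chr15:33052752-33053001, minus strand; Psmb5 at chr15:32047380-32047629, minus strand; and Psmc2 at chr4:14162391-14162640, minus strand. Capitals mark matches to 3 motifs on either strand: the interferon-response type (GAAA, any 2 bases, then GAAA), the STAT type TTCNNNGAA, and the antioxidant-response type TGACNNNGC or TGAGNNNGC.
Psmb8: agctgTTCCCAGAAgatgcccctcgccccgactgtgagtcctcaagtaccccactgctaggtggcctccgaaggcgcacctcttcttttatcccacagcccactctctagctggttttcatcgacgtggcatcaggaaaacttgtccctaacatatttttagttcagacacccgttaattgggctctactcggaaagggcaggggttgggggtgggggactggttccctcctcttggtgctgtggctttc
Psmb9: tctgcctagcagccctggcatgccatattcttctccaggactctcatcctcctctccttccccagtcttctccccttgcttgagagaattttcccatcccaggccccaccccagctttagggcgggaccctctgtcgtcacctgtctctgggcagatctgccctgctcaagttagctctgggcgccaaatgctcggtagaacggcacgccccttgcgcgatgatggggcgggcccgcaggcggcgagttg
Psmb10: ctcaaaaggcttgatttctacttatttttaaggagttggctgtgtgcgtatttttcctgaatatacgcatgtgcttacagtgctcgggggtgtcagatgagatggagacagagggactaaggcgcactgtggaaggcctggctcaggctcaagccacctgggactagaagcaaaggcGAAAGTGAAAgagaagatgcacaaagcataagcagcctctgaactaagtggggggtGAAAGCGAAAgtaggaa
Psme1: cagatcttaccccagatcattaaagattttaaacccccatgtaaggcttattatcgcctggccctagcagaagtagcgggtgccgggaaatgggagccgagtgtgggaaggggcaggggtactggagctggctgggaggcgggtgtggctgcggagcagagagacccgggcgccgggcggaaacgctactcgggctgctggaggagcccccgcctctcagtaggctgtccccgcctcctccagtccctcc
Psme2: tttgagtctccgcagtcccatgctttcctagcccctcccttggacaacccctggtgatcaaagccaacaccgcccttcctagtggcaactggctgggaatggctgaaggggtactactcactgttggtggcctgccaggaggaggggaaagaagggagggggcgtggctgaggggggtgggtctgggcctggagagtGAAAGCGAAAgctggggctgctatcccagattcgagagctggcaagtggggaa
Psmb5: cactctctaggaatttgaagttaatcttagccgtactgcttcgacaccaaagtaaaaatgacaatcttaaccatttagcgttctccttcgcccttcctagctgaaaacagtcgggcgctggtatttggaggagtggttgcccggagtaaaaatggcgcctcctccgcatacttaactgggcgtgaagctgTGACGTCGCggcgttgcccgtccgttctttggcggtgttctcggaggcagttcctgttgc
Psmc2: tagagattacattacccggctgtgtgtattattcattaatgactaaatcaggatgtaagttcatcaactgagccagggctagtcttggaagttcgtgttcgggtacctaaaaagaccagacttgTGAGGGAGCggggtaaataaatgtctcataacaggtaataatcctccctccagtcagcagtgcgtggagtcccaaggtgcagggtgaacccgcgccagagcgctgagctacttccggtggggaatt

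RefSeq promoters were matched for 37 of the 41 main members; Psma7, Psmd6, Psmd12 and Psmd14 were without one. The interferon-response type was present in 5 of the 37 (13.5%), against 3.41% of all 33469 promoters in the table: Psmb10 held 2 matches, starting 73 and 17 bases before the start, and Psme2, Psma4, Psmb3 and Psmd7 held it too. Psmb10 thus shared the motif with the PA28 subunit Psme2, while the windows of Psmb8, Psmb9 and Psme1 did not contain these letters. The STAT type was present in 4 (10.8%, against 7.67% of all), Psmb8, Psmc6, Psmd3 and Psmd7, and in Psmb8 it started 245 bases before the start. The antioxidant-response type, which NFE2L1 and NFE2L2 are known to read, was present in 12 (32.4%, against 22.8%), among them 4 of 7 standard beta subunits and 0 of 3 immune subunits. Of the 6 ATPase promoters only 1 held it (16.7%), that of Psmc2 shown above. CCAAT, searched on both strands and not capitalised, was present in 17 (45.9%, against 34% of all), including 5 of the 6 alpha ring promoters. An antioxidant-response match and a CCAAT match shared 1 base in Psmb2, the only overlap between different motifs among the members. A match is a description of letters, and binding was not measured.

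Levels can be compared between genes on the FPKM scale, which is per length of transcript. With PBS the mean FPKM of the 41 main members ran from 7.22 for Psmb10 to 112 for Psmb4, with a median of 45.6. Of the catalytic subunits, Psmb5, which carries the chymotrypsin-like activity, was at 85.6 ± 5.87 FPKM (SD, n = 5), Psmb6, the caspase-like subunit, at 68.4 ± 2.73, and Psmb7, the trypsin-like subunit, at 51.2 ± 2.82. Their immune counterparts were lower: Psmb8 was at 29.1 ± 1.46 FPKM, Psmb9 at 18.9 ± 1.08 and Psmb10 at 7.22 ± 0.839. The 5 PBS values of each of these 6 genes did not overlap with those of the next in order. The lowest 19S subunit was Psmd10, also called gankyrin and known as an assembly chaperone, at 8.54 ± 0.897 FPKM, and Psmd2, a base subunit that binds ubiquitin-like domains, was the highest at 112 ± 2.35. Among the activators Psme1 was highest at 92.1 ± 3.2 FPKM and Psme4 lowest at 23.4 ± 1.28.

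The FPKM lengths themselves differed between libraries for some members. The length implied by reads and FPKM stayed within 5% across the 20 libraries for 29 of the 41, Psmb8, Psmb5, Psmb6 and Psmb7 among them, but for Psmb10 it ran from 1588 to 1930 bp and for Psme3 from 2769 to 3097 bp. For such members FPKM and read-based values can move apart. All tests below are on read counts, and levels within a gene are CPM, that is counts scaled to a common library size by TMM factors.

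Doxorubicin lowered the immune subunit Psmb8, and lowered Psmb9 once a single outlying library was left out, while Psmb10 did not pass. Psmb8, at chr20:4652159-4655283 on the minus strand of mRatBN7.2, was at 35.7, 36.8, 38.2, 41 and 38.9 CPM with PBS and at 22.7, 21.9, 20.7, 46.9 and 23.1 CPM with doxorubicin. Doxorubicin replicate 4, at 46.9, was above every PBS library, and the other 4 doxorubicin libraries were below every PBS library. Over all 5 the log2 fold change was -0.49 ± 0.16 (SE; adjusted p = 0.0191 by edgeR's quasi-likelihood test with Benjamini-Hochberg adjustment). This call ended without doxorubicin replicate 2 or 3, with an adjusted p of up to 0.0536, and in a fit of the 2 groups alone (adjusted p = 0.0876). Without doxorubicin replicate 4 it was -0.79 ± 0.06 (adjusted p = 4.85e-09), a fall by 42% from 38.1 ± 2.01 to 22.1 ± 1.03 CPM.

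Psmb9, at chr20:4666046-4672512 on the plus strand, was at 19.6, 21.2, 18.4, 21.5 and 23.2 CPM with PBS and at 13.9, 13.9, 12.3, 28.3 and 17.9 CPM with doxorubicin. Again replicate 4 was above all PBS libraries and the others were below all of them. The log2 fold change did not pass over all 5 libraries (-0.27 ± 0.18, adjusted p = 0.234) and passed without replicate 4 (-0.52 ± 0.13, adjusted p = 0.00225). Psmb10, at chr19:33827229-33833626 on the minus strand, did not pass either way: it was at 14.6, 12.8, 12.8, 13.6 and 16.7 CPM with PBS and at 10.7, 13, 13.4, 21.1 and 14.9 CPM with doxorubicin, and the groups overlapped. Its log2 fold change was 0.05 ± 0.14 (adjusted p = 0.79), and -0.12 ± 0.11 (adjusted p = 0.401) without replicate 4.

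The ratio of an immune subunit to its standard counterpart is taken within a library. Psmb8 to Psmb5 in FPKM was 0.35, 0.345, 0.319, 0.343 and 0.345 with PBS and 0.229, 0.224, 0.214, 0.227 and 0.215 with doxorubicin. Here replicate 4, at 0.227, lay among the other doxorubicin libraries, and all 5 were below every PBS library. The mean ratio was 0.34 ± 0.0122 with PBS, 0.341 ± 0.0221 with histidine, 0.222 ± 0.00707 with doxorubicin and 0.218 ± 0.0219 with both compounds (SD, n = 5). Psmb9 to Psmb6 was 0.255 to 0.288 with PBS and 0.172 to 0.221 with doxorubicin, again without overlap and with replicate 4 included. With histidine it was 0.242 to 0.29, and with both compounds 0.182 to 0.24, so in FPKM those groups were apart by a narrow margin. Psmb10 to Psmb7 was 0.126 to 0.174 with PBS and 0.104 to 0.148 with doxorubicin, which overlapped, and was 0.134 to 0.17 with histidine against 0.0994 to 0.128 with both compounds, which did not. The length behind the FPKM of Psmb9 varied by 12.9% between libraries and that of Psmb10 by 21.5%. Taken in CPM, the ratios of these pairs overlapped between histidine and both compounds. Psmb10 and Psmb7 were at 14.4 and 74.9 CPM in histidine replicate 3 and at 13.2 and 67.2 in replicate 3 with both. Psmb9 and Psmb6 were at 19.6 and 67.1 CPM in histidine replicate 5 and at 17.5 and 57.4 in replicate 5 with both. These ratios are descriptions of 3 gene pairs with no test.

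**Figure D1:**
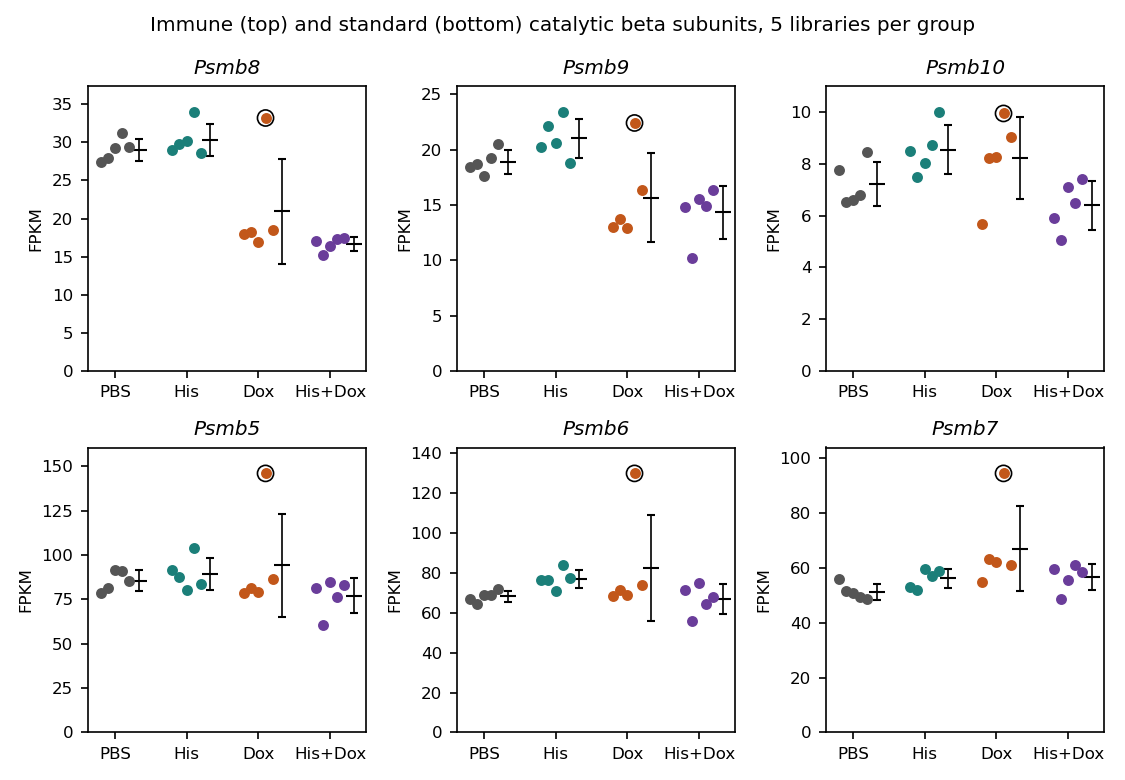
FPKM of the immune subunits (top) and their standard counterparts (bottom) in each library; points are libraries, the bar at the right of each group is the mean and SD over 5, and the ringed point is doxorubicin replicate 4. Psmb8 sat at 16.9 to 18.5 FPKM in the other 4 doxorubicin libraries and at 27.4 to 31.2 with PBS, while the ringed point was the highest of its group for all 6 genes.

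None of the 3 standard counterparts passed as a fall with doxorubicin. Psmb5 was at 78.1, 81.6, 91.8, 92.3 and 85.9 CPM with PBS and at 75.3, 76.9, 73.3, 158 and 82.5 CPM with doxorubicin, with groups that overlapped. Its log2 fold change was 0.12 ± 0.17 (adjusted p = 0.604), and -0.16 ± 0.09 (adjusted p = 0.171) without replicate 4. Psmb6 came to 0.25 ± 0.16 (adjusted p = 0.225), and to -0.03 ± 0.07 (adjusted p = 0.734) without it. Psmb7 passed over all 5 libraries (0.36 ± 0.13, adjusted p = 0.0331) and missed without replicate 4 (0.15 ± 0.07, adjusted p = 0.0711), and it also missed without any of PBS replicates 2, 3, 4 or 5.

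Over all members, 11 rose and 3 fell with doxorubicin, that is 23.9% and 6.52%, beside 21.7% and 21.5% of the 15449 genes tested. The median log2 fold change was 0.20 for the members and 0.05 for all genes. Without doxorubicin replicate 4, 8 rose and 5 fell (17.4% and 10.9%, beside 22.9% and 24.4% of all genes), and the median came to 0.04, beside 0.01 for all genes. In a fit of these 2 groups alone 2 rose and 1 fell, with 5460 genes called. Without replicates 3 and 4 together 5 rose and 5 fell, beside 20.5% and 22.6% of all genes. The share of members that rose was near the background over all libraries and below it without replicate 4, and the share that fell was below it throughout. Groups did not overlap for 6 higher and 1 lower member, beside 13.6% and 17.5% of all genes, and for 7 and 5 without replicate 4, beside 19.8% and 21.9%.

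**Figure D2:**
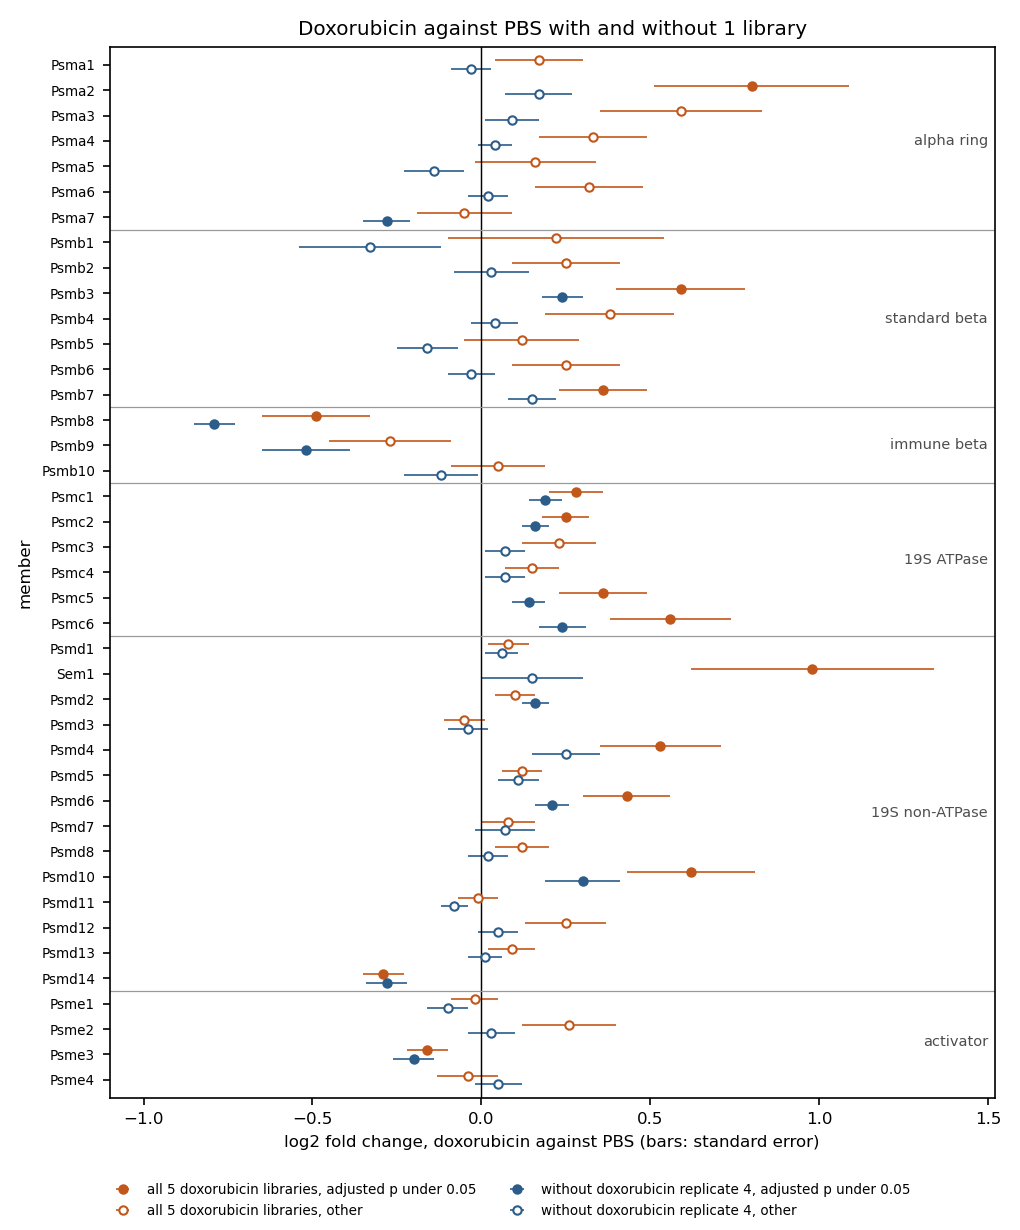
Log2 fold change of each main member for doxorubicin against PBS, with all 5 doxorubicin libraries (orange) and without replicate 4 (blue); bars are standard errors and filled points have an adjusted p under 0.05. Leaving out the library brought most 20S subunits closer to 0 and took Psmb8 from -0.49 to -0.79.

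In the alpha ring, which gates the core, Psma2 rose over all 5 libraries (0.80 ± 0.29, adjusted p = 0.0335). Its doxorubicin values were 76.7, 97.1, 83.8, 329 and 94 CPM against 70.9 to 89.1 with PBS, so that replicate 4 held 329 and the others lay near the PBS range. The call ended without that library (0.17 ± 0.10, adjusted p = 0.181) and without PBS replicate 1, 4 or 5. Psma7 moved the other way: without replicate 4 it fell to 97.5 ± 8.39 CPM from 118 ± 4.49 (-0.28 ± 0.07, adjusted p = 0.00364), and over all 5 libraries it was at -0.05. The other 5 alpha subunits did not pass in either fit. Among the standard beta subunits that do not cut, Psmb3 rose in both fits, at 0.59 ± 0.19 (adjusted p = 0.0149) and at 0.24 ± 0.06 (adjusted p = 0.00358) without replicate 4. Psmb1 varied widely within groups, from 57.4 to 120 CPM among the 4 other doxorubicin libraries and from 80.9 to 130 CPM with histidine, and passed in neither.

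Of the 19S ATPases 4 of 6 rose (66.7%), beside 21.7% of all genes and 22.9% without replicate 4; without replicates 3 and 4 together it was 2 of 6 (33.3%, beside 20.5%), Psmc1 and Psmc2. All 6 had log2 fold changes above 0, and the same 4, Psmc1, Psmc2, Psmc5 and Psmc6, passed with and without replicate 4. Psmc2 was at 111, 113, 108, 108 and 110 CPM with PBS and at 122, 125, 125, 164 and 118 CPM with doxorubicin, so all 5 doxorubicin libraries were above all PBS libraries. Its log2 fold change was 0.25 ± 0.07 (adjusted p = 0.00916), and 0.16 ± 0.04 (adjusted p = 0.00621) without replicate 4. The changes were small: without replicate 4 the 4 lay between 0.14 for Psmc5 and 0.24 for Psmc6. The call of Psmc5 ended without any of PBS replicates 1, 2, 3 or 5 (adjusted p up to 0.0637), and those of the other 3 held without any 1 of the 10 libraries. In the fit of these 2 groups alone only 2 members in all rose, so no more than 2 of these 4 calls held there. For histidine plus doxorubicin against histidine, given below, 0 of the 6 rose, at a median log2 fold change of 0.04. With the spread estimated without replicate 4 it was 1 of 6, Psmc2. The summed level of the 6 ATPases was 665 to 677 CPM with PBS and 724 to 774 CPM in the 4 other doxorubicin libraries, with 1184 in replicate 4.

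Of the 14 non-ATPase subunits, 4 rose and 1 fell over all libraries (28.6% and 7.14%, beside 21.7% and 21.5% of all genes), and 3 rose and 1 fell without replicate 4 (21.4% and 7.14%, beside 22.9% and 24.4%). The fall was that of Psmd14, a deubiquitinase that removes ubiquitin chains from the substrate. It was at 41.1, 37.1, 35.6, 37.7 and 41.2 CPM with PBS and at 30.5, 31.1, 34.6, 31.2 and 30.6 CPM with doxorubicin. All doxorubicin libraries were below all PBS libraries, and replicate 4, at 31.2, lay among the others of its group. The log2 fold change was -0.29 ± 0.06 (adjusted p = 0.000643), and -0.28 ± 0.06 without replicate 4, and the call held without any 1 of the 10 libraries. Psmd10 rose (0.62 ± 0.19, adjusted p = 0.0133; 0.30 ± 0.11, adjusted p = 0.0272, without replicate 4), from 11.2 to 13.8 CPM with PBS to 13.2 to 16.6 CPM in the 4 other libraries. That call ended in the fit of the 2 groups alone (adjusted p = 0.0606) and without replicates 3 and 4 (adjusted p = 0.0789). Psmd6, a lid subunit, rose in both fits (0.43 ± 0.13 and 0.21 ± 0.05 without replicate 4). Sem1, a small lid protein, had the largest log2 fold change of all members at 0.98 ± 0.36 (adjusted p = 0.0363), but 93.7 CPM in replicate 4 stood against 13.8 to 22.3 in the other 4 and 15.5 to 19.8 with PBS. Without that library Sem1 came to 0.15 (adjusted p = 0.422), and its call ended also without any of PBS replicates 1 to 4. Psmd4, a ubiquitin receptor, likewise passed only with replicate 4 (0.53 ± 0.18, adjusted p = 0.0201; 0.25 ± 0.10, adjusted p = 0.0545, without it), and Psmd2 only without it (0.16 ± 0.04, adjusted p = 0.00358).

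Among the activators, Psme1 and Psme2 did not pass with doxorubicin (-0.02 ± 0.07 and 0.26 ± 0.14; -0.10 ± 0.06 and 0.03 ± 0.07 without replicate 4). Psme3 fell by 0.16 ± 0.06 on the log2 scale (adjusted p = 0.0449), and by 0.20 ± 0.06 (adjusted p = 0.00652) without replicate 4. It was at 133, 127, 114, 122 and 126 CPM with PBS and at 109, 111, 104, 123 and 111 CPM with doxorubicin, and the groups overlapped. In FPKM its means were 40.2 ± 2.01 and 39.6 ± 0.873, and limma on log2(FPKM + 1) gave -0.02 (adjusted p = 0.78), so the fall of Psme3 was called in reads and not in the length-scaled values. The count-based call also ended without any 1 of 8 libraries, all except PBS replicate 3 and doxorubicin replicate 4. Psme4 did not pass (-0.04 ± 0.09), and doxorubicin replicate 4 was its lowest library, at 135 CPM against 177 to 244 in the rest.

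The excess of doxorubicin replicate 4 went with transcript length. Relative to the other 4 doxorubicin libraries its median log2 difference was 1.29 over all genes under 1000 bp at 5 CPM or more, 0.53 from 1000 to 2000 bp, 0.01 from 2000 to 4000 bp and -0.38 above that. Members followed the same order with medians of 1.05 for 8 members, 0.89 for 24, and 0.35 for 13, and Psme4, the longest, was at -0.53. Individual members departed from it, since Psma2, at 3720 bp, was 1.90 higher in replicate 4 and Psmd14, at 1551 bp, was at -0.02. The part of length in these differences was not tested.

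**Figure D3:**
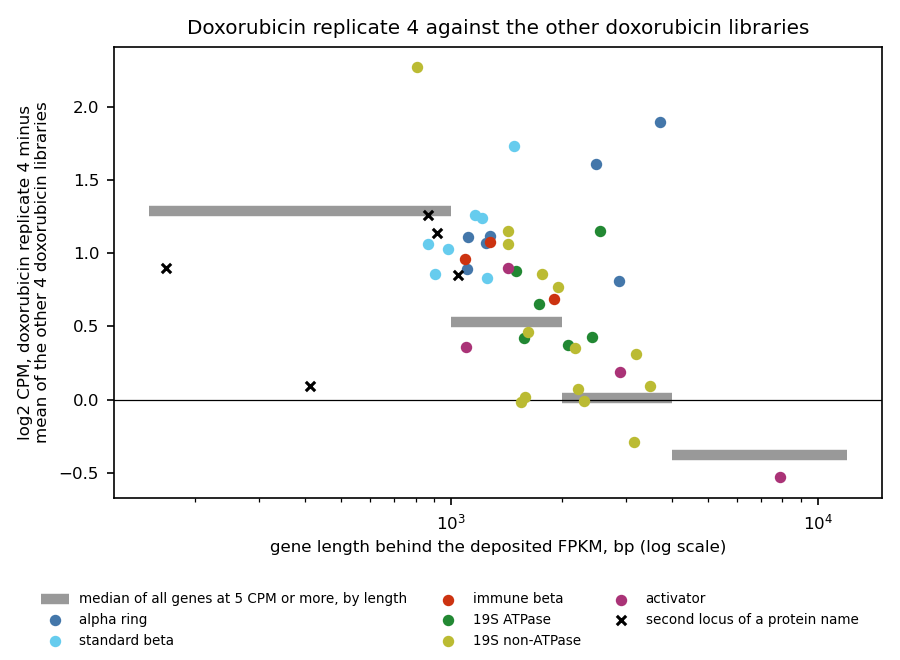
Difference in log2 CPM between doxorubicin replicate 4 and the mean of the other 4 doxorubicin libraries for each member, against the gene length behind its FPKM (log axis); grey bars are medians of all genes at 5 CPM or more by length. Most members lie above 0, with Sem1 at 2.27 the highest and Psme4 at -0.53 the lowest.

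Doxorubicin in the presence of histidine was compared with histidine alone, and these 10 libraries are not those of the comparison above. All 3 immune subunits fell. Psmb8 was at 37.5, 38.5, 38, 42.7 and 36.4 CPM with histidine and at 21.3, 18.6, 19.9, 21.6 and 21.9 CPM with both compounds, with no overlap. The log2 fold change was -0.90 ± 0.16 (adjusted p = 0.000164), a fall by 46.6%. Psmb9 was at 22.3, 23.8, 22.6, 25 and 19.6 CPM with histidine and at 15.9, 10.8, 16.6, 15.9 and 17.5 CPM with both, also without overlap (-0.56 ± 0.18, adjusted p = 0.0162). Psmb10 was at 16.1, 14.6, 14.4, 16.9 and 17.2 CPM with histidine and at 11.1, 9.38, 13.2, 11.5 and 11.5 CPM with both (-0.48 ± 0.14, adjusted p = 0.00934). Its groups did not overlap either. None of the 3 calls ended when any 1 of the 10 libraries was left out, and the highest adjusted p was 0.0486, for Psmb9.

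Beside them Psmd14 fell again (-0.32 ± 0.06, adjusted p = 0.000224), from 35.3 to 40.9 CPM with histidine to 29.8 to 32.5 CPM with both. Psme1 fell from 110 ± 1.42 to 91.7 ± 6.45 CPM (-0.26 ± 0.07, adjusted p = 0.00919), and all libraries with both compounds were below all histidine libraries. Psma7 fell from 123 ± 11.7 to 94.4 ± 6.45 CPM (-0.38 ± 0.14, adjusted p = 0.036), a call that ended without any 1 of 8 libraries, all except histidine replicate 3 and histidine plus doxorubicin replicate 5. In all, 0 members rose and 6 fell (13%), beside 19.9% and 20.3% of all genes. By DESeq2 the counts were 0 and 7. In the edgeR fit 9 members in either direction had an unadjusted p under 0.05, beside 47.2% of all genes. Groups did not overlap for 1 higher member, Psmd6, and 7 lower, beside 16.5% and 18.7% of all genes. The spread in this fit is shared over all 20 libraries. With it estimated without doxorubicin replicate 4, 2 members rose, Psmc2 and Psmd6, and 12 fell (26.1%), beside 24.2% and 24.9% of all genes. Without doxorubicin replicates 3 and 4 in the fit these were 3 and 12, beside 24.4% and 25.2%. The 6 further falls, with their log2 fold changes, were those of Psma5 (-0.37), Psmb5 and Psmb6 (both -0.26), Psme2 (-0.22), Psme3 (-0.15) and Psmd11 (-0.11).

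Both doxorubicin comparisons, which have no library in common, called Psmd14 and Psmb8 lower, which are 2 of the 3 falls without histidine and 2 of the 6 with it. They called no rise in common, of 11 and 0. With replicate 4 left out of both fits, 5 falls were shared, Psmb8, Psmb9, Psmd14, Psma7 and Psme3, which are all 5 of the falls without histidine and 5 of the 12 with it, and 2 rises were shared, Psmc2 and Psmd6, of 8 and 2. Psme3 was called on reads, while its FPKM overlapped here too, at 41.7 ± 1.92 with histidine and 40.6 ± 1.62 with both. The sign of the log2 fold change was the same for 23 of the 46 members over all libraries and for 33 without replicate 4. In the fits without replicate 4, 24.4% of all genes fell without histidine and 24.9% with it, and 22.9% and 24.2% rose. Shared calls and signs were not counted over all genes, so this sharing is not shown to be particular to the members. Psmb10 was called only in the presence of histidine. The test of that difference, the interaction of histidine and doxorubicin, gave -0.53 ± 0.20 (adjusted p = 0.631 by edgeR's quasi-likelihood test), and -0.36 ± 0.15 (adjusted p = 0.777) without replicate 4, so the 2 comparisons of Psmb10 were not shown to differ.

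**Figure D4:**
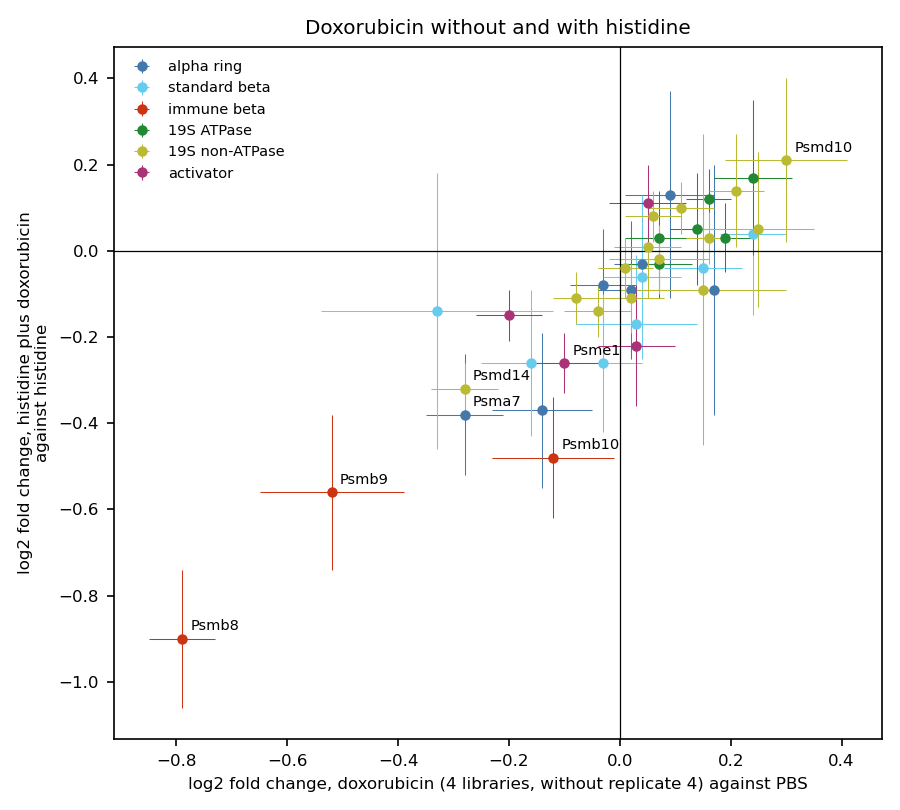
Log2 fold change of each main member for doxorubicin against PBS without replicate 4 (horizontal axis) and for histidine plus doxorubicin against histidine (vertical axis), with standard errors and colours by class. Psmb8, at -0.79 and -0.90, and Psmb9, at -0.52 and -0.56, lie lowest in both.

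Markers of leukocytes fell in both doxorubicin comparisons. All 10 measured macrophage and leukocyte markers fell with doxorubicin, at a median log2 fold change of -5.52, and all 10 fell with histidine plus doxorubicin against histidine, at -5.80, while Psmb8 fell by 42% (without replicate 4) and by 46.6%. In doxorubicin replicate 4 the same 10 markers summed to 255 CPM, beside 171 to 198 in the other 4 libraries. With PBS the sum was 2186 to 2256 CPM. Of the 255 CPM in replicate 4, Fcer1g held 177, beside 121 to 139 in the other 4 doxorubicin libraries. Adgre1 and Tyrobp were also highest of the group in replicate 4. Ptprc, Itgam and Mrc1 were lowest there, and the remaining markers lay within the range of the others. In replicate 4 Psmb8 was at 46.9 CPM and Psmb9 at 28.3 CPM. Its Psmb8 to Psmb5 ratio of 0.227 lay among those of the other doxorubicin libraries. Of the 12 cardiomyocyte markers 11 fell without histidine, 12 when replicate 4 was left out, and 12 with histidine. The part of these markers in the fall of Psmb8, Psmb9 and Psmb10 was not tested.

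No member passed the test with histidine alone. Against PBS, 0 of 46 members and 0 of 15449 genes (0%) passed edgeR's quasi-likelihood test, with 0 members and 312 genes (2.02%) at an unadjusted p under 0.05. With the spread estimated without doxorubicin replicate 4, 3 members had such a p, Psmb2, Psmb6 and Sem1, beside 4.13% of all genes. DESeq2 called 5 genes and limma 1, of which 0 were members. The members with the smallest p were Psmb2 (0.24 ± 0.16), Psmb10 (0.17 ± 0.14) and Psmd11 (0.07 ± 0.06), all with an adjusted p of 1. Psmb2, a beta ring subunit that does not cut, was at 39.2, 32.3, 24.8, 34.8 and 26.6 CPM with PBS and at 32.3, 37.2, 36.8, 40.3 and 38.9 CPM with histidine, which overlapped. The log2 fold changes of the 46 lay between -0.13 and 0.30 with a median of 0.06, and that of Psmb8 was 0.02 ± 0.16. No member's groups were apart, beside 0.395% of all genes apart upwards and 0.447% downwards.

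Adding histidine to doxorubicin also gave 0 called members of 46 and 0 of all genes (0%), with 15 members and 1940 genes (12.6%) at an unadjusted p under 0.05 (3 members, beside 7.29% of all genes, without doxorubicin replicate 4), and 22 genes but 0 members by DESeq2. Nearly all members, 44 of 46, had a log2 fold change below 0, with a median of -0.28 beside -0.01 for all genes. Without doxorubicin replicate 4 this was 32 of 46, with a median of -0.04 beside 0.00. The smallest p-values were those of Psmd8 (-0.24 ± 0.08, adjusted p = 0.393), Psmb10 (-0.36 ± 0.14) and Psmb3 (-0.48 ± 0.19). Without replicate 4 these came to -0.14 ± 0.06, -0.20 ± 0.11 and -0.13 ± 0.06. Psmd8, a lid subunit, was at 83, 76.9, 87.8, 113 and 82.2 CPM with doxorubicin and at 75.8, 67.9, 77.5, 78.2 and 75.8 CPM with both, and these overlapped. Psmb8 was at -0.39 ± 0.16, and at -0.10 ± 0.06 (adjusted p = 0.742) without replicate 4.

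The interaction likewise called 0 members and 0 genes (0%), with 9 members and 1060 genes (6.86%) at an unadjusted p under 0.05 (5 members, beside 6.24% of all genes, without doxorubicin replicate 4), and 17 genes but 0 members by DESeq2. Its log2 values were below 0 for 43 of 46 members, with a median of -0.31, and for 40 without replicate 4, with a median of -0.10. After Psmb10 the smallest p-values were those of the PA28 subunits Psme2 (-0.48 ± 0.20) and Psme1 (-0.23 ± 0.10), both with an adjusted p of 0.631. Without replicate 4 they came to -0.25 ± 0.10 and -0.15 ± 0.08.

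**Figure D5:**
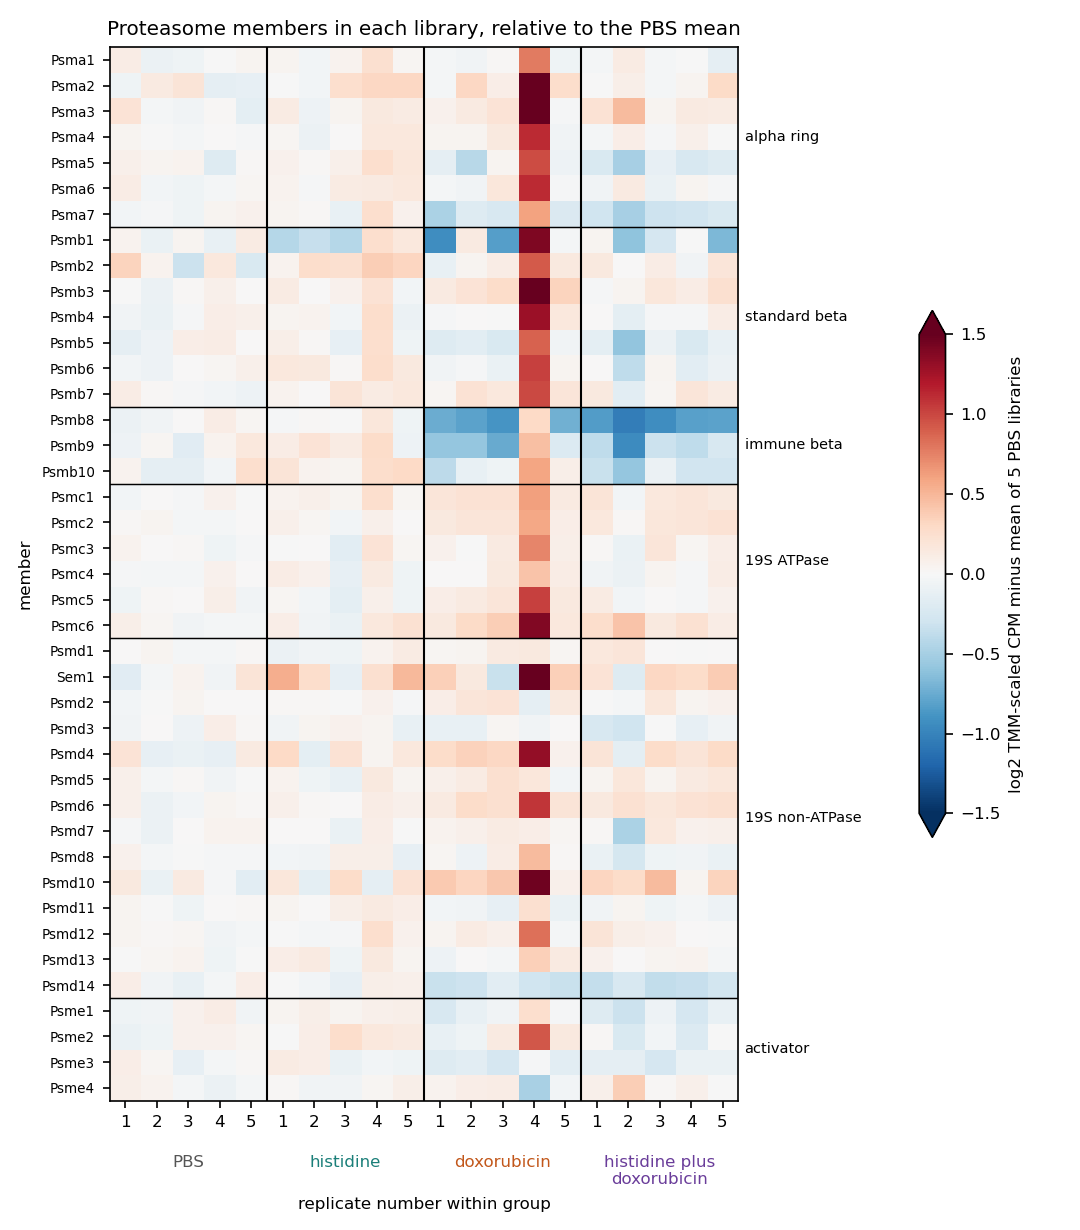
Log2 TMM-scaled CPM of the 41 main members in each of the 20 libraries, minus the mean of the 5 PBS libraries; colours stop at -1.5 and 1.5. Psmb8, Psmb9 and Psmd14 are low in the groups with doxorubicin, except Psmb8 and Psmb9 in doxorubicin replicate 4, which is high for most 20S subunits.

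Other genes of the pathway were taken from lists. Their counts stand beside 21.7% higher and 21.5% lower among all genes for doxorubicin (22.9% and 24.4% without replicate 4), and 19.9% and 20.3% in the presence of histidine (24.2% and 24.9% with the spread estimated without replicate 4). Of 18 assembly factors and proteasome-interacting proteins that are not members, 8 rose and 2 fell with doxorubicin (7 and 3 without replicate 4), at a median log2 fold change of 0.20 (0.04 without it). Zfand2a, an arsenite-inducible proteasome-associated protein, rose to 46.9 ± 5.87 from 37 ± 1.74 CPM (0.34 ± 0.07, adjusted p = 0.000973), Psmf1, which encodes the inhibitor PI31, by 0.34 ± 0.07, and Usp14, a deubiquitinase of the 19S particle, by 0.36 ± 0.09. With histidine plus doxorubicin against histidine 5 rose and 1 fell (5 and 4 with that spread) at a median of -0.03, the rises led by Zfand2a (0.47 ± 0.07), Psmf1 (0.28 ± 0.07) and the shuttle factor Ubqln2 (0.35 ± 0.11). Psmg1, a chaperone of alpha ring assembly, fell by 0.30 ± 0.05 with that spread.

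Of 11 genes in the list of NFE2L1 and NFE2L2, transcription factors known to drive proteasome genes, 5 rose and 0 fell with doxorubicin, and 3 rose and 0 fell in the presence of histidine (3 and 1 with the spread estimated without replicate 4). These counts stand beside 21.7% and 21.5% of all genes, and 19.9% and 20.3%. The median log2 fold change with doxorubicin was 0.10, 0.22 without replicate 4 and 0.02 without replicates 3 and 4, and in the presence of histidine it was 0.31. Nfe2l1 itself was at 266, 292, 282, 301 and 290 CPM with PBS and at 365, 346, 339, 317 and 359 CPM with doxorubicin, all above PBS, and rose by 0.30 ± 0.05 without replicate 4 and by 0.31 ± 0.06 in the presence of histidine. The NFE2L2 target Txnrd1, a thioredoxin reductase, rose by 0.41 ± 0.06 and 0.38 ± 0.06, Nqo1, a quinone reductase, by 3.71 ± 0.16 and 3.30 ± 0.16, and Maff, a small MAF partner, by 0.69 ± 0.12 without histidine. Gclm, of the same list, was at 14.6 ± 1.47 CPM with PBS and 14.1 ± 1.76 with doxorubicin. It was at 15.9 ± 1 CPM with histidine and 13.6 ± 1.8 with both. Nfe2l2 was split within groups: 7 libraries of 3 groups were at 38.6 to 74.3 CPM and the other 13 at 159 to 350 CPM. Among the 13, libraries without doxorubicin were at 159 to 187 CPM and those with it at 294 to 350. Among the 7, levels were 38.6 and 39.7 CPM without doxorubicin and 63.8 to 74.3 with it. The gene did not pass with doxorubicin (0.01 ± 0.57), a value pooled over the split, whose cause was not tested. Of 8 genes of ubiquitin, its activating enzymes and the VCP segregase, 4 rose and 0 fell with doxorubicin, beside the same shares of all genes, including Nploc4 (0.27 ± 0.06), Uba1 (0.28 ± 0.07) and Vcp (0.19 ± 0.07), and 3 rose and 0 fell in the presence of histidine (4 and 0 with that spread), at medians of 0.23 and 0.24.

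Genes of MHC class I presentation moved in both directions. Of 13, 4 rose and 1 fell with doxorubicin (5 and 2 without replicate 4), beside 21.7% and 21.5% of all genes. In the presence of histidine 4 rose and 3 fell (5 and 5 with the spread estimated without replicate 4), beside 19.9% and 20.3%. The medians were 0.05 (-0.04 without replicate 4) and -0.07. Tap1, a chain of the peptide transporter, lies between Psmb8 and Psmb9, on the minus strand at chr20:4656263-4666901. It rose by 0.53 ± 0.09 (adjusted p = 4.93e-05), from 40.6, 43.8, 41.4, 44.7 and 43.5 CPM with PBS to 59.7, 57, 56.8, 68.5 and 66.3 CPM with doxorubicin, without overlap, and by 0.40 ± 0.09 in the presence of histidine. Its annotated span shares 856 bp with Psmb9, and because no step that marks the strand is named in the labels' protocols, reads there cannot be assigned to either gene. Jak2, a kinase of the interferon-gamma receptor, rose by 0.83 ± 0.15, and Nlrc5, a transactivator of MHC class I genes, by 0.76 ± 0.16 in the presence of histidine. Irf8, an interferon regulatory factor of myeloid cells, fell from 20.9 ± 1.47 to 8.79 ± 0.82 CPM (-1.25 ± 0.08, adjusted p = 2.74e-10), and by 1.18 ± 0.08 in the presence of histidine; it is also a gene of the leukocytes whose markers fell. Ifngr2, a chain of the interferon-gamma receptor, fell by 0.40 ± 0.05 in the presence of histidine with the spread taken without doxorubicin replicate 4. Of 7 muscle ubiquitin ligases 4 fell and 1 rose with doxorubicin (4 and 0 without replicate 4), and 4 fell and 1 rose in the presence of histidine. The falls without histidine included Fbxo32, or atrogin-1 (-1.51 ± 0.17), Trim55 (-1.98 ± 0.23) and Fbxo40 (-1.60 ± 0.43). Mean levels with PBS were 33.8 CPM for Fbxo32, 4.57 for Trim55 and only 0.834 for Fbxo40. These falls stand beside that of the cardiomyocyte markers, whose part was not tested.

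The 5 further loci were a Psme1 locus on chromosome 17, a Psme3 locus on chromosome 6, a Psma6 locus on chromosome 12, a Psmb6 locus on chromosome 2 and a Psmd8 locus on chromosome 3, with spans of 257 to 1197 bp. The Psma6 locus was at 52.8 ± 10.7 FPKM with PBS, against 80.9 ± 5.21 for Psma6 itself, and the other 4 were at 0.712 to 3.13 FPKM. None passed in any comparison, and since near-identical copies can share reads, their values are uncertain. Of the 46 members 10 overlap the annotated span of another measured gene, in each case on the opposite strand, among them Psmb3, Psmb7, Psmb9, Psmc1, Psmc5 and Psmd6, whose reads may therefore include those of the neighbour.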

How the data were processed

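RNA sequencing libraries from 4 groups of 5 were analysed. The labels' protocols describe oligo(dT) capture and random-primed cDNA, with no step named that marks the strand. The deposited table holds whole-number read counts per gene and, in separate columns, FPKM values scaled by the authors to length and library, per the file headers. The submitters' processing notes name Trimmomatic and build mRatBN7.2. Which aligner and counter were used is not given in the sources used here.

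Counts were filtered with filterByExpr, which left 15449 of 15503 genes, scaled by TMM, and tested with edgeR 4.0.16 (R 4.3.3) in a single quasi-likelihood fit of the 4 groups with no replicate block. P-values were adjusted over all genes (Benjamini-Hochberg, threshold 0.05). The SE is that of the log2 fold change. Each compound was compared with PBS, both compounds with either, and the interaction was tested. No 2 libraries of a group agreed within sampling noise. Alternatives were DESeq2 1.42.0, RLE scaling, no filter, a replicate block, limma 3.58.1 on log2(FPKM + 1), fits of the 2 groups alone, and each library left out; leaving out doxorubicin replicates 3 and 4 together, and estimating the spread without replicate 4, were chosen after seeing the data.

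Members, gene lists and markers were chosen with earlier results of these data known. Named in every comparison are the immune and standard catalytic subunits and the activators, then up to 3 largest called rises and falls of other members (the 3 smallest p where none passed), and up to 3 called genes per list. Further members, list genes and markers were named after their values were seen. Symbols and promoters came from RefSeq tables of GRCr8. List genes that were not matched are not analysed here.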

Additional observations from a re-analysis of the deposited data

Results flagged for a closer look

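Members named by the rule above, class sums and pair ratios were screened for outlying libraries. In 30 of 112 groups of 5 values a single library stood far from the rest of its group. Chance alone does this in about 1 in 20 groups, and members of a library are not independent of each other. Doxorubicin replicate 4 accounted for 17 of the 30. It was the highest doxorubicin library for Psma2 (329 CPM, next 97.1), Psma7 (180, next 103), Psmb2 (58.6, next 34.4), Psmb3 (225, next 100), Psmb5 (158, next 82.5), Psmb6 (124, next 62.7), Psmb7 (130, next 76.4) and Psmb8 (46.9, next 23.1). It was also the highest for Sem1 (93.7 CPM, next 22.3), Psmd10 (34.4, next 16.6), Psmd11 (67.3, next 55.5) and Psme2 (99.1, next 57.5). Its summed CPM was 1472 for the alpha ring, 1322 for the standard beta, 96.2 for the immune beta, 1184 for the 19S ATPase and 1727 for the 19S non-ATPase subunits. Members outside the rule were not screened. Among them, doxorubicin replicate 4 was at 312 CPM for Psma3 (next 110) and at 276 CPM for Psmc6 (next 136).

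Histidine plus doxorubicin replicate 2 accounted for 7. It was the lowest of its group for Psmb9 (10.8 CPM, next 15.9) and Psmd8 (67.9, next 75.8), and the highest for Psme4 (244, next 199). Its summed CPM was lowest for the standard beta (474), immune beta (38.8) and 19S ATPase (685) subunits and highest for the activators (485).

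The other 6 were spread over 5 libraries. PBS replicate 1 was high for Psmd8 (85.3 CPM, next 80.6) and for the alpha ring sum (643). Doxorubicin replicate 3 was high for Psmd14 (34.6, next 31.2), and histidine plus doxorubicin replicate 3 was low for Psme3 (104, next 113). The FPKM ratio of Psmb8 to Psmb5 was low in PBS replicate 3 (0.319, next 0.343), and that of Psmb10 to Psmb7 was high in PBS replicate 5 (0.174, next 0.139).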

How the results depend on the processing

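Of 1251 values recomputed under the alternatives, 1131 kept their direction and side of the threshold or stayed within their spread, 49 lost and 17 gained a call, 36 counts or levels moved, and 18 turned sign, all 18 with an adjusted p of 0.05 or above. The choice of libraries moved the doxorubicin counts most. Without doxorubicin replicates 3 and 4 together 5 members rose and 5 fell, and with only the 2 groups in the fit 2 rose and 1 fell. With 1 library left out the rises ran from 8 to 14 and the falls from 1 to 5, with 1 for doxorubicin replicates 2 and 3 and 5 for replicate 4.

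Log2 fold changes that turned sign, without doxorubicin replicate 4 and then without replicates 3 and 4, were those of Psmb10 (-0.12 and -0.13), Psmb5 (-0.16 and -0.14), Psmb6 (-0.03 and -0.01) and Psme4 (0.05 and 0.03). Psme2 turned to -0.01 without both. Psme1 turned to 0.01 with limma on log2(FPKM + 1), to 0.00 without PBS replicate 4 and to 0.02 without doxorubicin replicate 1. For histidine against PBS, Psmb8 turned to -0.00 without PBS replicate 1 and to -0.02 without histidine replicate 4. For both compounds against doxorubicin, Psmb9 turned to 0.08 and 0.01 without replicate 4 and without 3 and 4. For both against histidine, Psmb7 turned to 0.01 with limma and to 0.01 without histidine plus doxorubicin replicate 2. With 1 library left out these values ran from -0.12 to 0.14 for Psmb10, -0.16 to 0.19 for Psmb5, -0.03 to 0.33 for Psmb6, -0.10 to 0.02 for Psme1 and -0.08 to 0.05 for Psme4 with doxorubicin. They ran from -0.27 to 0.08 for Psmb9 with both compounds against doxorubicin, from -0.07 to 0.01 for Psmb7 with both against histidine, and from -0.02 to 0.05 for Psmb8 with histidine. The cause of these turns was not tested.

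For both compounds against histidine, limma and the fit of 2 groups each gave 1 member higher, and the latter gave 11 lower. Without doxorubicin replicates 3 and 4, 3 were higher and 12 lower, and with the spread taken without replicate 4, 2 and 12. Over all genes, histidine against PBS gave 5 by DESeq2, 1 by limma, 1 without replicates 3 and 4, 1 with the spread taken without replicate 4, and 0 to 1 with a library left out. Both compounds against doxorubicin gave 22 by DESeq2, 2 without replicates 3 and 4, and 0 to 6 with a library left out, 6 of them without doxorubicin replicate 2 and 4 without replicate 4. The interaction gave 17 by DESeq2 and 0 to 2 with a library left out. Without TMM scaling the mean summed CPM was 601 for the alpha ring, 655 for the 19S ATPases, 1288 for the non-ATPases and 458 for the activators with PBS, and 742 for the ATPases with both compounds.

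Whether replicate numbers pair the libraries was not settled. The 30 correlations of deviations between same-numbered libraries ran from -0.0766 to 0.193, and 9 of 20 libraries correlated best with their own number. For replicate 3 all 6 were positive, at 0.017 to 0.193, and 3 libraries were best with their own number. The number expected without pairing was not computed, and the labels do not say that a number marks a shared preparation. With the replicate block 9 members rose and 3 fell with doxorubicin, with 6579 genes called; Psma2 (0.62, adjusted p = 0.0826 by edgeR) and Sem1 (0.72, adjusted p = 0.105) no longer passed. With it, 0 rose and 7 fell for both compounds against histidine, with 6310 called, Psme3 among the falls (-0.15, adjusted p = 0.0349). Pair ratios per kb of coding length were not run, since no coding lengths were at hand. Depth was 53246205 counts or more per library, the 41 main members had at least 567 reads in every library, and the further loci as few as 20.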
